A study of Mus musculus with 18 samples.

Results

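The genes described here mark lymphocytes: T cells, natural killer (NK) cells, B cells and the antibody-secreting plasma cells that B cells become. The set was a list of 41 genes, kept where a gene had 10 or more counts summed over all 18 libraries. All 41 were present among the 32285 genes of the deposited count table and all 41 met that minimum. T cells recognise antigen through a T cell receptor held in the membrane by the CD3 proteins and ζ chain, with CD4 or CD8 as co-receptor. NK cells carry activating and inhibitory receptors and, like killer T cells, store granzymes and perforin in granules. B cells signal through CD79a and CD79b, and plasma cells pour out immunoglobulin, whose κ light chain is encoded by Igkc and whose polymeric IgA and IgM are joined by the J chain. The healthy kidney holds few lymphocytes, and in cystic kidneys they are known to gather in the interstitium together with macrophages.

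The tissue came from kidneys of male C57BL/6 mice of the iKspCre-Pkd1del line, in which a Cre expressed in kidney epithelium and switched on by tamoxifen removes exons 2 to 11 of Pkd1, the main gene of dominant polycystic kidney disease. Tamoxifen was given by gavage at 12.5 mg/kg on postnatal days 18 and 19, and the mice were killed when MRI showed mild cystic disease. F4/80 is a macrophage surface protein, and its signal guided microdissection of frozen sections. Tissue without cysts is called non-cystic here, and cystic tissue is called F4/80-low or F4/80-high by that signal. Each of 3 kidneys gave 2 libraries per region type, hence 6 libraries per region type. Every group carried the deletion and the tamoxifen, so the non-cystic regions are tissue of cystic kidneys and stand for no Pkd1-intact control. The labels number the kidneys without saying that they came from separate mice, and give an age of 269 for kidneys 1 and 3 and of 297 for kidney 2 with no unit. Libraries from the same region type of a kidney are called replicates 1 and 2.

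Library totals ran from 5366651 to 9188813 counts. The mitochondrial share of counts was 10.6 to 15.4% for non-cystic, 7.71 to 11.2% for F4/80-low and 1.49 to 4.06% for F4/80-high libraries. Adgre1, the gene of F4/80, averaged 2.56, 6.55 and 53.9 in non-cystic, F4/80-low and F4/80-high regions on the CPM scale (counts scaled to library size, with TMM factors). The summed level of 10 macrophage marker genes was 83.1 to 133 CPM for non-cystic, 168 to 498 for F4/80-low and 644 to 2347 for F4/80-high libraries, and none of the 10 was at 0 throughout a region type. The summed level of 10 kidney epithelium markers was 4023 to 6444, 3972 to 7076 and 609 to 2962 CPM in the same order, that of 9 dendritic cell markers 14.9 to 47.4, 41.4 to 116 and 124 to 162, and that of 8 neutrophil and mast cell markers 1.14 to 12.5, 2.09 to 12.2 and 7.33 to 38.5, with 3, 3 and 1 of the 8 at 0 in every library. For 6 platelet and erythroid markers it was 357 to 1298, 97.3 to 1699 and 62.4 to 484 CPM. In F4/80-high against non-cystic regions 9 of 10 macrophage and 8 of 9 dendritic cell markers rose and 5 of 10 epithelium markers fell, and their part in the results below was not tested. In bulk tissue more cells of a type and more RNA per cell cannot be told apart.

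F4/80-high regions had higher levels of most of the tested T cell, NK cell and B cell genes than non-cystic regions of the same kidneys. Against non-cystic regions, 25 of 33 tested genes rose and 0 fell, beside 19.7% of all 16034 tested genes called higher and 19.5% called lower. The rise took in genes of the T cell receptor complex, both co-receptors, the kinases and adaptor below the receptor, NK receptors and the B cell receptor partner Cd79b. Genes that were not called in this comparison were Cd247, Cd5, Foxp3, Ncr1, Gzma, Cd79a, Ighm and Jchain. Against F4/80-low regions, 15 of 33 rose and 0 fell, beside 10.3% of all tested genes called higher and 14% called lower. In F4/80-low against non-cystic regions 0 of 33 passed the test, beside 1.51% of all tested genes called higher and 0.0249% called lower.

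These calls came from edgeR's quasi-likelihood test on 9 sums (each kidney's paired libraries of a region type added), with the kidney as block and a Benjamini-Hochberg adjusted p below 0.05 over all tested genes. Log2 fold changes below stand with a standard error (SE) over 3 kidneys, and every adjusted p is from this test unless another is named. The median log2 fold change over the 33 genes was 2.85 for F4/80-high against non-cystic regions, 1.79 for F4/80-high against F4/80-low and 0.84 for F4/80-low against non-cystic, beside 0.04, 0.04 and 0.00 over all tested genes. All 25 genes called against non-cystic regions were higher in 3 of 3 kidneys, and 28 of the 33 were, called or not. The same sums gave the calls, so this adds no separate support, and the share over all tested genes was not computed. In 18 of the 33 every F4/80-high library lay above every non-cystic library (14.6% of all tested genes did). In 11 of 33 every F4/80-high library lay above every F4/80-low library (7.62% of all tested genes), and in 2 of 33, Cd28 and Ighm, every F4/80-low library lay above every non-cystic library (1.78%). For Cd28 the nearest libraries of these region types had 3 counts each. The comparisons share their regions, so they are not independent of each other.

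The other 8 of the 41 genes, Cd6, Ctla4, Tbx21, Eomes, Gzmb, Prf1, Blk and Pax5, had too few counts to be tested and are given by counts. Of the 33 tested, 10 (Cd3e, Trbc1, Cd4, Zap70, Cd28, Icos, Pdcd1, Klrb1c, Ncr1 and Cd22) reached the count minimum only with the help of the F4/80-high sums. This favours a higher value there, which makes counts over the 33 a description of these genes. Among the other 23, 16 were called higher in F4/80-high than in non-cystic regions and 12 higher than in F4/80-low regions. The share called among all genes that passed in this way was not computed, so these counts also only describe the genes. For F4/80-low against non-cystic regions 8 genes were higher and 0 lower at an unadjusted p below 0.05, and the DESeq2 Wald test called 2, Klrk1 and Nkg7. The shares of all tested genes at that unadjusted p and in the DESeq2 test were not computed, so these numbers also only describe the genes.

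**Figure D1:**
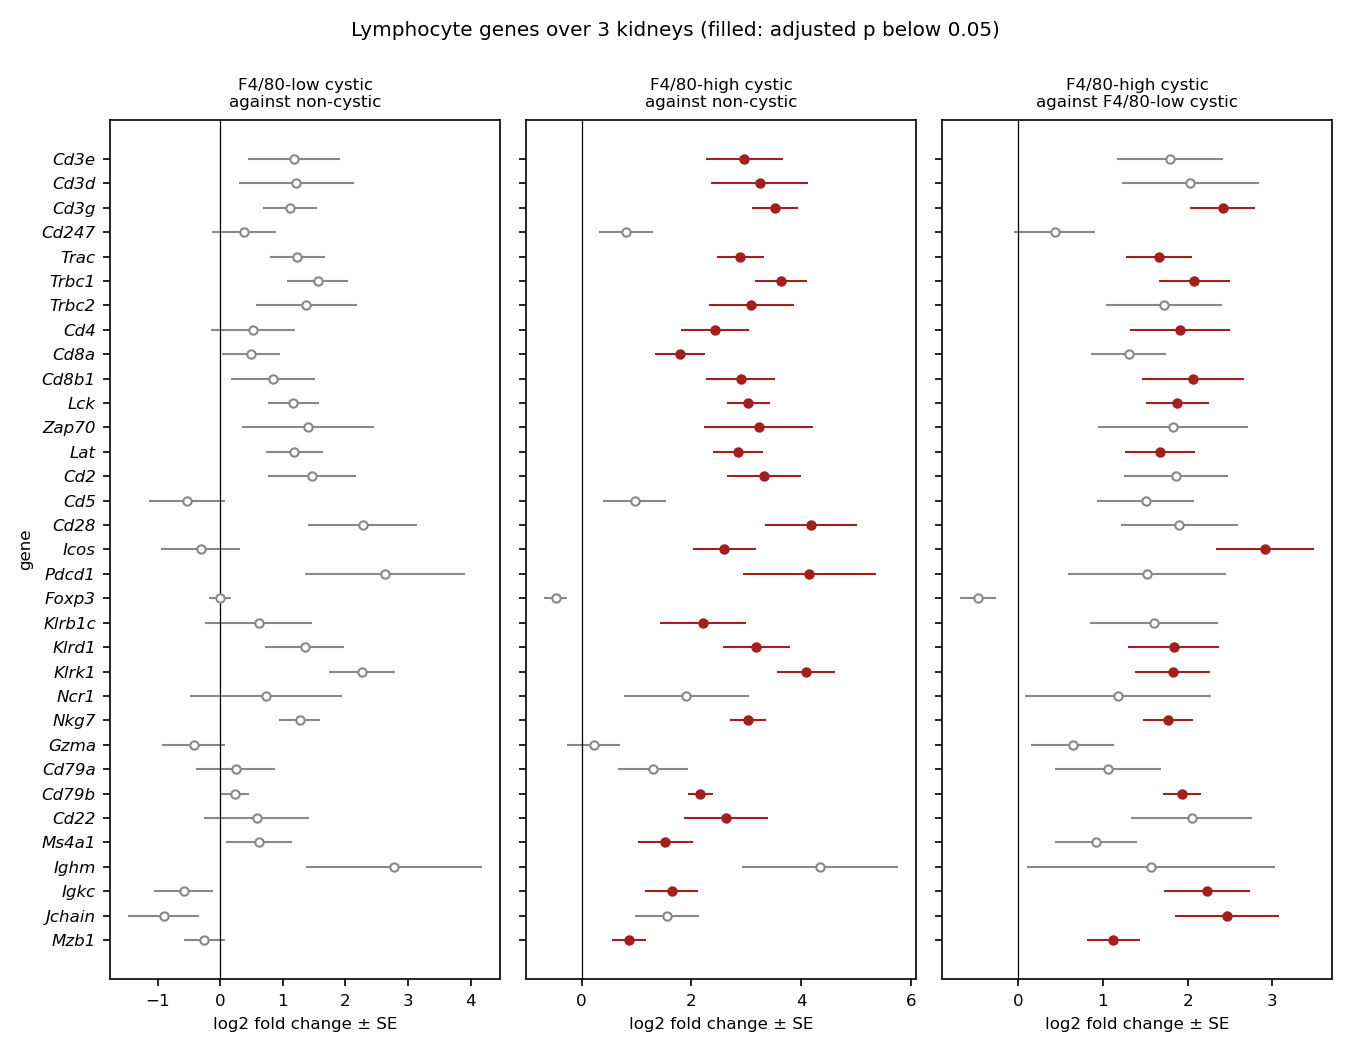
Log2 fold change (horizontal axes, ± SE over 3 kidneys) of the 33 tested lymphocyte genes in the 3 comparisons; filled points passed an adjusted p of 0.05. The middle panel holds 25 filled points and the right panel 15, all to the right of 0, while the left panel holds 0.

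Most genes of the T cell receptor complex were called higher in F4/80-high than in non-cystic regions. Its chains are the constant regions of the α chain (Trac) and β chain (Trbc1, Trbc2), the CD3 chains that carry the signal inward (Cd3e, Cd3d, Cd3g) and the ζ chain Cd247. Of these 7 genes, 6 rose in F4/80-high against non-cystic regions, beside 19.7% of all tested genes. Against F4/80-low regions 3, Cd3g, Trac and Trbc1, also rose, beside 10.3% of all tested genes. Cd3e and Trbc1 reached the count minimum only with the help of the F4/80-high sums, so their calls are a description. Cd3g (ENSMUSG00000002033, chromosome 9, 44969572 to 44980431, GRCm38) had 0 to 1.84 CPM (median 1.63) in non-cystic, 1.18 to 4.95 (median 2.55) in F4/80-low and 9.70 to 22.5 (median 12.4) in F4/80-high libraries. Every F4/80-high library thus lay above every other library. The kidney means were 1.21 ± 0.619, 2.69 ± 0.914 and 14.1 ± 3.34 CPM (SD, n = 3), and Cd3g rose by 3.53 ± 0.42 on the log2 scale against non-cystic regions (adjusted p = 0.00033) and by 2.41 ± 0.39 against F4/80-low regions (adjusted p = 0.0031).

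The receptor chains followed. Trac (chromosome 14, 54220521 to 54224206) had 0.227 to 1.67 CPM (median 0.720), 0.930 to 3.50 (median 2.53) and 4.53 to 10.4 (median 7.68) in non-cystic, F4/80-low and F4/80-high libraries, and rose by 2.89 ± 0.43 against non-cystic regions (adjusted p = 0.0009) and by 1.66 ± 0.39 against F4/80-low regions (adjusted p = 0.0146). Trbc1 had 0 to 0.859 CPM (median 0.472), 0.137 to 2.46 (median 1.35) and 2.18 to 8.12 (median 5.49), and rose by 3.63 ± 0.48 and 2.08 ± 0.42 in the same comparisons (adjusted p = 0.00048 and 0.00774). Of its F4/80-high libraries only kidney 1 replicate 2 lay below the highest F4/80-low value. Trbc2, whose sequence is close to that of Trbc1 so that reads can be split between them, rose by 3.10 ± 0.77 against non-cystic regions (adjusted p = 0.0128) and was not called against F4/80-low regions (1.72 ± 0.69, adjusted p = 0.101).

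Cd3d and Cd3g lie head to head on chromosome 9 with 1354 bases between their starts, and their levels went together over the regions. Cd3d had 0 to 2.66 CPM in non-cystic (median 0.843), 0.820 to 4.64 in F4/80-low (median 2.80) and 7.69 to 13.8 in F4/80-high libraries (median 12.2), with a log2 fold change of 3.24 ± 0.89 against non-cystic regions (adjusted p = 0.024). The 250 bases before the start of each gene are shown because these neighbours were both higher in every F4/80-high library than in any other. They come from RefSeq (GRCm38.p6) at chr9:44980432-44980681 on the minus strand for Cd3g and chr9:44981536-44981785 on the plus strand for Cd3d, each 5′ to 3′ in the direction of its gene, with the E-box CAGGTG (either strand) in capitals.
Cd3g: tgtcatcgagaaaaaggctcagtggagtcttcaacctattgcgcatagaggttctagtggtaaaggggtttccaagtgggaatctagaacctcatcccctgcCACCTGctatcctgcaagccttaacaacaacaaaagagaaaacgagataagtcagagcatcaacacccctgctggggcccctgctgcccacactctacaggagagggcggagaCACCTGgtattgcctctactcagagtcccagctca
Cd3d: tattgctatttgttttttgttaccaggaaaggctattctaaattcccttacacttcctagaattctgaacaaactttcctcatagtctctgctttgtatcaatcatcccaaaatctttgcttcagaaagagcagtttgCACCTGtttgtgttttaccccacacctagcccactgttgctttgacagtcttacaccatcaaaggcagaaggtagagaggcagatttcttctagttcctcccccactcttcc
Cd3g holds 2 matches and Cd3d 1. CAGGTG was present in 12 of the 25 members that had an entry among these promoters (30 promoters, Mzb1 left out) and in 17.2% of all 32851 promoters of the same length; a member with several promoters counted when any of them held the motif.

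The remaining chains were lower or less clear. Cd3e had 13, 34 and 155 counts in the non-cystic, F4/80-low and F4/80-high libraries in all, and rose by 2.97 ± 0.70 against non-cystic regions (adjusted p = 0.0081). Per kilobase of exon, the mean level in F4/80-high regions was 9.51 CPM for Trbc2, 7.68 for Trac, 6.99 for Trbc1, 6.12 for Cd3d, 4.31 for Cd3g, 0.666 for Cd3e and 0.416 for Cd247. Cd247 had a log2 fold change of 0.81 ± 0.49 against non-cystic regions (adjusted p = 0.221). Most of its exon bases overlap Pou2f1 on the other strand, and since the library kit marks no strand these reads cannot be told apart.

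**Figure D2:**
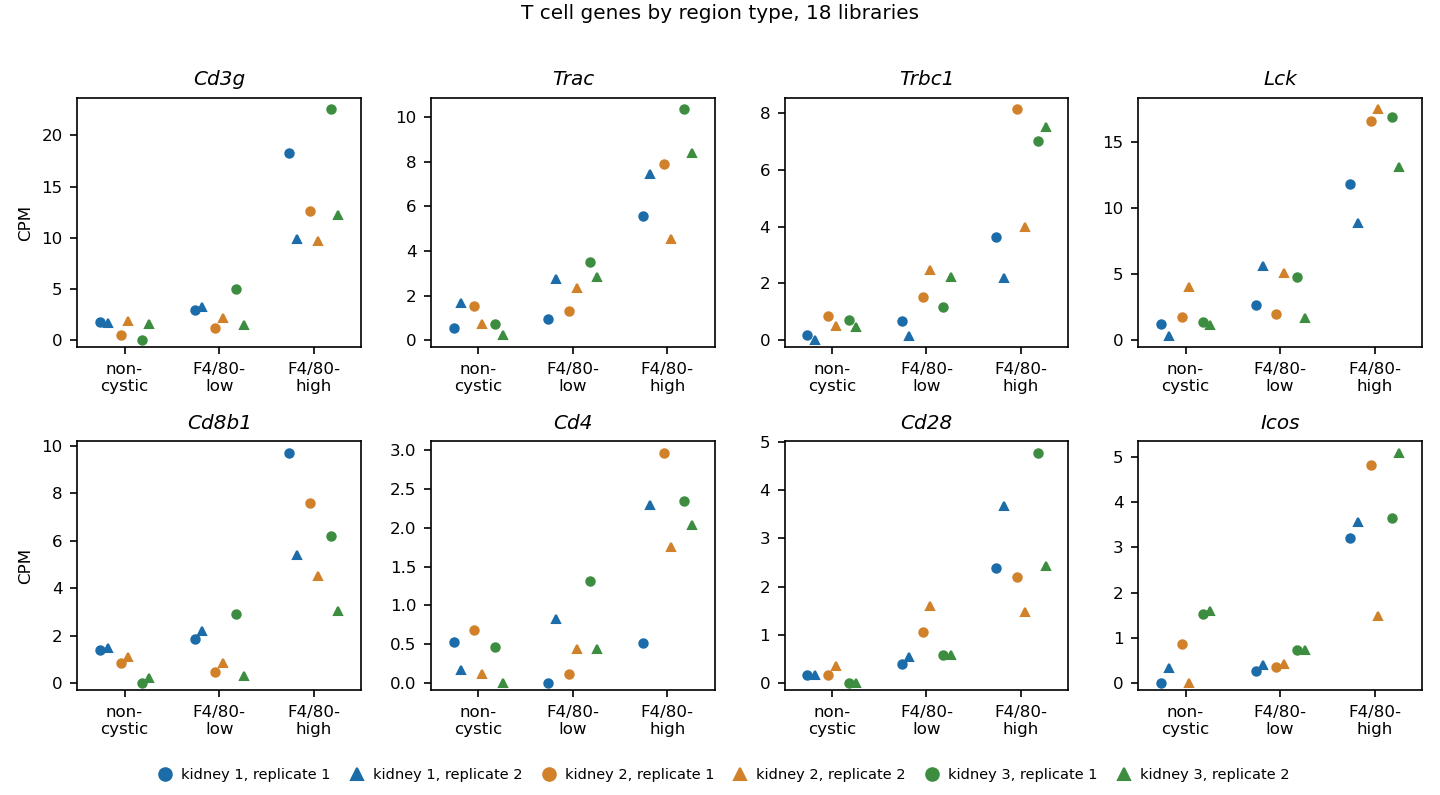
CPM (vertical axes) of 8 T cell genes in the 18 libraries by region type (horizontal axes); colours are kidneys and shapes are replicates. In Cd3g, Trac, Lck and Cd8b1 every F4/80-high library lies above every library of the other region types, and in Cd4 the F4/80-high library of kidney 1 replicate 1 lies among the others.

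The co-receptors are Cd4 of helper T cells and the CD8 chains Cd8a and Cd8b1 of killer T cells. In F4/80-high against non-cystic regions 3 of 3 rose, beside 19.7% of all tested genes. Cd4 and Cd8b1 also rose against F4/80-low regions, beside 10.3% of all tested genes. Cd4 reached the count minimum only with the help of the F4/80-high sums, so its calls are a description. Cd8b1, which is nearly restricted to αβ T cells, had 0 to 1.505 CPM (median 0.98) in non-cystic, 0.298 to 2.91 (median 1.37) in F4/80-low and 3.06 to 9.71 (median 5.79) in F4/80-high libraries. It rose by 2.90 ± 0.64 against non-cystic (adjusted p = 0.00609) and by 2.06 ± 0.60 against F4/80-low regions (adjusted p = 0.0339), with no overlap between F4/80-high and other libraries. Cd8a rose by 1.80 ± 0.46 against non-cystic regions (adjusted p = 0.0119), and its F4/80-high libraries ran from 0.637 to 6.09 CPM, so that kidney 3 replicate 2 and kidney 1 replicate 2 (2.64 CPM) lay within the non-cystic range. Cd4 rose by 2.43 ± 0.62 against non-cystic (adjusted p = 0.0119) and by 1.91 ± 0.59 against F4/80-low regions (adjusted p = 0.0415), on 13, 22 and 110 counts. The call against F4/80-low regions was lost in 12 of 21 leave-outs of a library or kidney (adjusted p = 0.0509 to 0.306) and without a filter (adjusted p = 0.0636). Its F4/80-high library of kidney 1 replicate 1 had 0.517 CPM beside 1.75 to 2.96 in the other 5, and macrophages and dendritic cells can express Cd4 as well.

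The signalling proteins next to the receptor rose with it. They are the kinases Lck and Zap70 and the adaptor Lat. In F4/80-high against non-cystic regions 3 of 3 rose, beside 19.7% of all tested genes. Zap70 reached the count minimum only with the help of the F4/80-high sums, so its call is a description. Lck had 0.334 to 4.04 CPM (median 1.33), 1.64 to 5.61 (median 3.73) and 8.84 to 17.5 (median 14.8) in non-cystic, F4/80-low and F4/80-high libraries. Lck rose by 3.04 ± 0.40 against non-cystic (adjusted p = 0.00048) and by 1.88 ± 0.37 against F4/80-low regions (adjusted p = 0.00716). Lat had 0.334 to 4.28 CPM (median 0.988), 1.73 to 5.68 (median 2.92) and 7.02 to 16.5 (median 11.6), and rose by 2.85 ± 0.45 and 1.67 ± 0.41 (adjusted p = 0.00115 and 0.018). In both genes the F4/80-high libraries lay above all others. Zap70 was at 0 in 4 of 6 non-cystic libraries and had 8, 23 and 100 counts by region type, with a log2 fold change of 3.23 ± 1.00 against non-cystic regions (adjusted p = 0.0278) and no call against F4/80-low regions (1.83 ± 0.88, adjusted p = 0.161).

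Surface proteins that tune the T cell's contact gave a split picture. The adhesion receptor Cd2 had 0.118 to 2.17 CPM (median 1.06) in non-cystic, 0.588 to 5.36 (median 2.34) in F4/80-low and 4.89 to 19.9 (median 8.73) in F4/80-high libraries and rose by 3.32 ± 0.67 against non-cystic regions (adjusted p = 0.00516). Cd5, a brake on receptor signalling, was not called (0.97 ± 0.57, adjusted p = 0.209). Its non-cystic library of kidney 3 replicate 1 had 62 counts (7.29 CPM), above all 6 F4/80-high libraries (2.03 to 5.51 CPM), while the other 5 non-cystic libraries had 3 to 6 counts. Without that library the Cd5 log2 fold change was 2.14 (adjusted p = 0.00404; 0.00404 to 0.677 over 35 alternatives, of which 5 passed). Cd6, the relative of Cd5, had 7, 5 and 56 counts and was left out by the filter on low counts. Without a filter its log2 fold change against F4/80-low regions was 3.00 ± 1.05 (adjusted p = 0.0511).

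Costimulation and checkpoint receptors, which decide whether a T cell that has met antigen goes on, were near 0 outside F4/80-high regions. Cd28, Icos and Pdcd1 passed the filter on low counts only through their F4/80-high sums, so that their being called against non-cystic regions is a description. Cd28, the main costimulatory receptor, had 0 to 0.367 CPM (median 0.169), 0.399 to 1.59 (median 0.590) and 1.48 to 4.77 (median 2.398) on 6, 35 and 157 counts, and rose by 4.18 ± 0.84 (adjusted p = 0.00393). Its F4/80-low libraries lay above the non-cystic ones in CPM, with a log2 fold change of 2.28 ± 0.87 that was not called (adjusted p = 0.328). The lowest F4/80-low and the highest non-cystic library both had 3 counts, so only the scaling to library size set them apart. Icos, found on activated helper T cells, differed in shape: it had 0 to 1.59 CPM (median 0.597) in non-cystic and 0.266 to 0.745 (median 0.423) in F4/80-low libraries, then 1.48 to 5.09 (median 3.61) in F4/80-high libraries. Icos rose by 2.91 ± 0.58 against F4/80-low regions (adjusted p = 0.00746) and by 2.60 ± 0.58 against non-cystic regions (adjusted p = 0.0062). Pdcd1, which encodes the checkpoint receptor PD-1, had 2, 17 and 55 counts. The ratio of F4/80-high to non-cystic regions was 18.2 with an exact 95% counting interval of 4.80 to 153.8 (adjusted p = 0.0212), and the interval covers counting error only. Ctla4, a second checkpoint receptor, had 5, 2 and 19 counts, of which 12 came from kidney 3 replicate 1 of the F4/80-high regions.

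The transcription factors of T cell subsets gave no call. Foxp3, the factor of regulatory T cells, had 8.93 to 19.9 CPM (median 13.6) in non-cystic, 9.71 to 16.6 (median 14.0) in F4/80-low and 7.44 to 11.8 (median 10.3) in F4/80-high libraries. Its log2 fold change against non-cystic regions was -0.47 ± 0.21 (adjusted p = 0.106), and its sign turned to 0.14 when libraries were scaled by total counts, a scaling that moved the median of all genes to 0.65. In non-cystic regions Foxp3 stood at 2.99 CPM per kilobase of exon beside 0.370 for Cd3g and 0.0851 for Cd4. Its exons overlap those of Flicr on the same strand and of Ccdc22 and Ppp1r3f on the other strand, so these counts may not all belong to Foxp3, and this share was not tested. Tbx21 of type 1 helper and NK cells had 5, 6 and 24 counts, all 5 non-cystic ones in kidney 1 replicate 1. Eomes of NK and memory killer T cells had 6, 19 and 19 counts.

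Among NK and granule genes, most receptors and the granule gene Nkg7 rose. Of 4 NK receptor genes, 3 rose against non-cystic regions (19.7% of all tested genes did) and 2 rose against F4/80-low regions (10.3%). Klrb1c and Ncr1 reached the count minimum only with the help of the F4/80-high sums, so the Klrb1c call is a description. Klrk1, which encodes the activating receptor NKG2D of NK and killer T cells, had 0 to 1.36 CPM (median 0.346) in non-cystic, 1.29 to 4.32 (median 1.90) in F4/80-low and 5.22 to 12.8 (median 7.26) in F4/80-high libraries. It rose by 4.09 ± 0.52 against non-cystic (adjusted p = 0.00043) and by 1.82 ± 0.44 against F4/80-low regions (adjusted p = 0.0159), with no overlap of F4/80-high and other libraries. Klrk1 also had the smallest p of the 33 genes in F4/80-low against non-cystic regions, 2.27 ± 0.53 (adjusted p = 0.0754; 0.0052 to 0.332 over 35 alternatives, of which 6 passed). Klrd1 (CD94), the partner of the NKG2 receptors, had 0 to 0.687 CPM (median 0.420), 0.133 to 1.37 (median 0.933) and 1.38 to 5.08 (median 3.40), and rose by 3.19 ± 0.61 and 1.83 ± 0.54 (adjusted p = 0.00294 and 0.0352).

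Genes closest to the NK lineage had few counts. Klrb1c (NK1.1) had 14, 21 and 96 counts and rose by 2.22 ± 0.79 against non-cystic regions (adjusted p = 0.0482), a call that was lost on leaving out 13 of 20 libraries or kidneys (adjusted p = 0.0514 to 0.131). Ncr1, the receptor NKp46, had 8, 16 and 43 counts and was not called (1.91 ± 1.14, adjusted p = 0.215).

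Nkg7, a granule membrane protein of NK and killer T cells, had the highest level per length of the T and NK genes, 31.0 CPM per kilobase in F4/80-high regions. It had 0.910 to 5.85 CPM (median 3.15), 3.41 to 13.0 (median 7.98) and 11.2 to 40.3 (median 28.9) in non-cystic, F4/80-low and F4/80-high libraries. Nkg7 rose by 3.03 ± 0.32 against non-cystic (adjusted p = 0.00018) and by 1.77 ± 0.30 against F4/80-low regions (adjusted p = 0.0039), and its value against non-cystic regions in F4/80-low regions was 1.27 ± 0.32 (adjusted p = 0.101; 0.0114 to 0.563 over 35 alternatives, of which 4 passed).

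The granule proteases and perforin stood apart from Nkg7. Gzma, granzyme A, had 0 to 4.77 CPM (median 1.88), 0 to 5.65 (median 1.14) and 0.509 to 4.99 (median 2.35), so that the region types overlapped over nearly their whole range. Its log2 fold change was 0.22 ± 0.48 against non-cystic regions (adjusted p = 0.751) and 0.64 ± 0.49 against F4/80-low regions (adjusted p = 0.369). Replicate 2 of kidney 2 held 39, 39 and 54 of the 82, 67 and 147 Gzma counts. Gzmb, granzyme B, had 6, 14 and 17 counts and Prf1, perforin, 5, 17 and 27, over 6 libraries each. Neither reached the count minimum, and without a filter their log2 fold changes against non-cystic regions were 1.11 ± 1.29 (adjusted p = 0.674) and 1.89 ± 1.23 (adjusted p = 0.346).

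**Figure D3:**
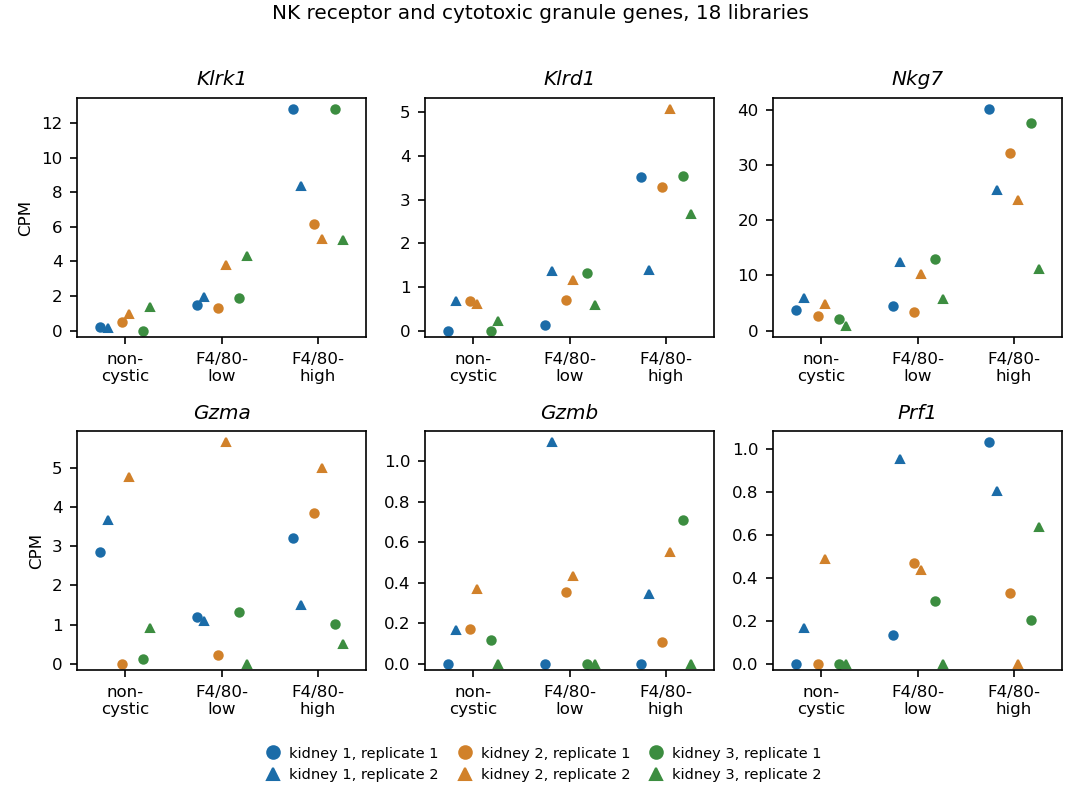
CPM (vertical axes) of NK receptor and granule genes in the 18 libraries by region type (horizontal axes); colours are kidneys and shapes are replicates. Klrk1 runs from 5.22 to 12.8 CPM in F4/80-high and from 0 to 1.36 in non-cystic libraries, while Gzma spans 0.509 to 4.99 and 0 to 4.77.

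Klrk1, which rose, and Gzma, which was not called, are shown with the 250 bases before their starts because these share a motif and differ in the measurement. They come from RefSeq (GRCm38.p6) at chr6:129623865-129624114 and chr13:113100982-113101231, both on the minus strand and written 5′ to 3′ in the direction of the gene, with the RUNX motif TGTGGT (either strand) in capitals.
Klrk1: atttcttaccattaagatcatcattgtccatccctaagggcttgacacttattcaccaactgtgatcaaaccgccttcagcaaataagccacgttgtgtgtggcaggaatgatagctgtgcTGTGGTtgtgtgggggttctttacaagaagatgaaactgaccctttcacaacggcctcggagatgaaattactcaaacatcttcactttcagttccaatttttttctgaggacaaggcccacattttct
Gzma: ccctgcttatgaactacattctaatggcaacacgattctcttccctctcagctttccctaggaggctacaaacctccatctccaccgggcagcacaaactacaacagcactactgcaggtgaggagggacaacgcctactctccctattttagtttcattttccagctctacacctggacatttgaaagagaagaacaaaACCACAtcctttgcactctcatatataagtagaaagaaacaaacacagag
TGTGGT was present in 7 of 7 NK and granule genes that had an entry (Gzma, Gzmb, Klrb1c, Klrk1, Ncr1, Nkg7 and Prf1), in 9 of 25 members in all and in 14.0% of all 32851 promoters. This group was read out after the matches were seen. The other motifs were searched on both strands too. TGNGGT, which includes the RUNX motif above, was in 17 of 25 members and 40.1% of promoters. Of the nested or overlapping ETS motifs, ACAGGAAG was in 4 members and 2.90% of promoters, the shorter CAGGAAG in 9 and 10.8%, and the core GGAAGT in 10 and 19.7%. The E-box CAGCTG was in 2 members and 13.0% of promoters, the GATA motif AGATAA in 2 and 9.99%, and the TCF motif CTTTGAT in 1 and 3.21%. The T-box motif AGGTGTGA, which can overlap the first E-box, was in 1 and 1.12%. An IRF motif was in 2 and 2.98%, and the octamer ATGCAAAT, also without its last base, and an NF-kB motif were in 0 of 25 members and in 1.60, 4.12 and 0.140% of promoters. A match describes these letters and shows no binding.

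Of 4 tested B cell genes, 3 (Cd79b, Cd22 and Ms4a1) rose in F4/80-high against non-cystic regions, beside 19.7% of all tested genes. Cd79b alone rose against F4/80-low regions, beside 10.3% of all tested genes. Cd22 reached the count minimum only with the help of the F4/80-high sums, so its call is a description. Cd79b, the signalling chain beside the B cell receptor, had 2.82 to 4.35 CPM (median 3.93) in non-cystic, 1.88 to 7.04 (median 4.53) in F4/80-low and 11.0 to 25.1 (median 15.4) in F4/80-high libraries. Cd79b rose by 2.16 ± 0.23 and 1.94 ± 0.23 (adjusted p = 0.00018 and 0.00123), with no overlap between the F4/80-high libraries and the others. Its partner Cd79a had 0 to 2.66 CPM (median 1.10), 0.437 to 2.39 (median 1.68) and 0.255 to 5.39 (median 2.72), and was not called (1.30 ± 0.64, adjusted p = 0.138). Per kilobase of exon, Cd79b stood at 11.6 CPM and Cd79a at 1.92 CPM in F4/80-high regions. The receptor brake Cd22 and the surface protein CD20 (Ms4a1) rose by 2.63 ± 0.77 (adjusted p = 0.0218) and 1.53 ± 0.51 (adjusted p = 0.0369) against non-cystic regions, and both were patchy: Cd22 had 1, 23, 13, 2, 31 and 11 counts and Ms4a1 18, 8, 1, 37, 36 and 2 in the F4/80-high libraries, in the order kidney 1 replicates 1 and 2, kidney 2, kidney 3. Without kidney 2 replicate 2 or kidney 3 replicate 1 of the F4/80-high regions the Ms4a1 value was 0.77 or 0.92 (adjusted p = 0.472 and 0.36). The kinase Blk and the lineage factor Pax5 had 4, 8 and 21 and 9, 20 and 16 counts and were not tested.

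Plasma cell genes differed widely between libraries of the same kidney and region type. Igkc (chromosome 6, 70726435 to 70726966), the κ light chain constant region, had 6669, 4716, 13279, 4703, 53 and 1480 counts in non-cystic libraries, in the same order of kidneys and replicates. The F4/80-low libraries had 3147, 3720, 10763, 7914, 869 and 47. The F4/80-high libraries had 48101, 27612, 23228, 10572, 9356 and 34. In each region type kidney 3 was lowest, and in each a single library of kidney 3 fell to 53 counts or fewer: replicate 1 of the non-cystic and replicate 2 of the F4/80-low and F4/80-high regions.

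Jchain, which joins IgA and IgM into polymers, and Mzb1, a chaperone of the secretory pathway in B and plasma cells, were lowest in the same 3 libraries. Jchain had 6, 5 and 1 counts there, beside 467 to 2933, 132 to 1495 and 1827 to 11618 in the other 5 libraries of each region type. Mzb1 had 0, 5 and 1 counts there, beside 19 to 38, 14 to 36 and 48 to 93. Between the 2 F4/80-high libraries of kidney 3 the CPM differed by 219-fold for Igkc, 2375-fold for Jchain and 38.3-fold for Mzb1. Between the F4/80-high libraries of any kidney the fold was at most 1.85 for Cd3g, 1.33 for Lck and 1.61 for Cd79b. Other lymphocyte genes were less even, with folds of up to 31.1 for Ms4a1, 25.6 for Cd22, 9.57 for Cd8a, 8.32 for Klrb1c, 4.61 for Cd3e, 4.44 for Cd4 and 3.37 for Nkg7.

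By the test on sums, Igkc rose by 1.64 ± 0.48 against non-cystic (adjusted p = 0.0229) and by 2.23 ± 0.50 against F4/80-low regions (adjusted p = 0.013). Mzb1 rose by 0.87 ± 0.31 (adjusted p = 0.0491) and 1.12 ± 0.31 (adjusted p = 0.0289). Jchain was not called against non-cystic regions (1.56 ± 0.59, adjusted p = 0.0724) and rose by 2.46 ± 0.61 against F4/80-low regions (adjusted p = 0.0263). The calls of Igkc and Mzb1 against non-cystic regions rested on single libraries, and every fit on the 18 libraries without summing lost them. Without F4/80-high kidney 3 replicate 1 the values against non-cystic regions were 0.22 for Igkc (adjusted p = 0.918), -0.23 for Jchain (adjusted p = 0.92) and 0.38 for Mzb1 (adjusted p = 0.668), and against F4/80-low regions 0.83, 0.98 and 0.61 (adjusted p = 0.717, 0.668 and 0.531). Without non-cystic kidney 3 replicate 1 they were 1.06, 0.89 and 0.43 (adjusted p = 0.139, 0.325 and 0.396). Over 35 alternatives the adjusted p of Igkc against non-cystic regions ran from 0.00027 to 0.918, and 20 passed. In the libraries labelled 2 alone the values against non-cystic regions were -1.28, -1.73 and -0.23 (adjusted p = 0.708, 0.595 and 0.871). The mean Igkc level was 813.5 ± 621.0, 587.5 ± 588.3 and 2058 ± 1764 CPM (SD, n = 3) in non-cystic, F4/80-low and F4/80-high regions, and in F4/80-low regions the SD exceeded the mean.

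**Figure D4:**
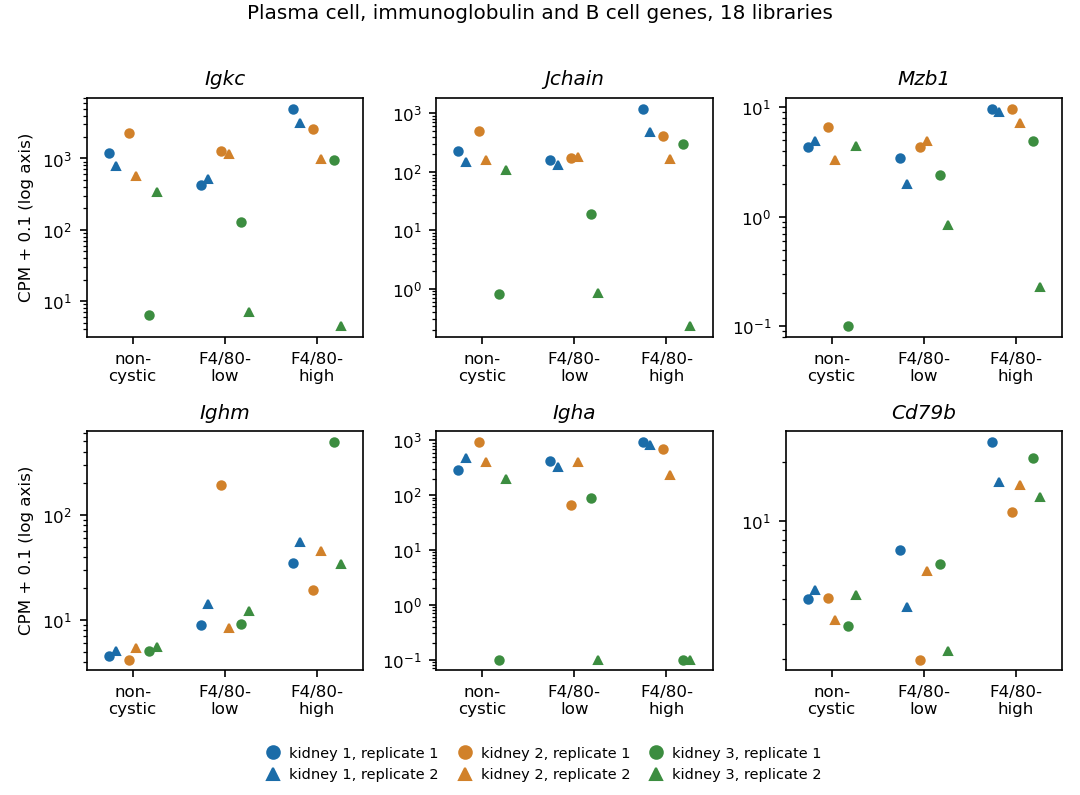
CPM plus 0.1 on log axes (vertical) of Igkc, Jchain, Mzb1, Ighm, Igha and Cd79b in the 18 libraries by region type (horizontal); colours are kidneys and shapes are replicates. Igkc, Jchain and Mzb1 are lowest in the same 3 libraries of kidney 3, Igha is at 0 in these and in F4/80-high kidney 3 replicate 1, and Cd79b shows no such gap.

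Ighm, the constant region of IgM, took another course. It had 24 to 44 counts in non-cystic libraries (4.12 to 5.46 CPM), a narrow range beside that of Igkc. In F4/80-low libraries it had 67, 104, 1622, 57, 62 and 81 counts and in F4/80-high libraries 337, 480, 174, 491, 4854 and 268. Every F4/80-low library lay above every non-cystic library, and every F4/80-high library lay above every non-cystic library, yet the fold changes of 2.78 ± 1.40 and 4.35 ± 1.42 were not called (adjusted p = 0.569 and 0.0631; the second passed in 16 of 35 alternatives, with 0.00026 to 0.26). In the libraries labelled 2 alone, which hold neither, Ighm rose by 3.01 against non-cystic regions (adjusted p = 0.00026) and by 1.92 against F4/80-low regions (adjusted p = 0.00307).

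The heavy chain class varied by library as well. IgA (Igha) made up 59.2 to 98.7% of the heavy chain constant counts in 5 of 6 non-cystic libraries, and Igha had 0 counts in 4 of 18 libraries: the 3 with the lowest Igkc and F4/80-high kidney 3 replicate 1. In that last library Ighm made up 99.3% of 4888 heavy chain counts (exact 95% interval 99.0 to 99.5%), and the 0 Igha counts allow a share of up to 0.0614%. In F4/80-low kidney 2 replicate 1 the Ighm share was 74.1% (72.2 to 76.0%) of 2188. Ighg2b had 1063 counts in non-cystic kidney 1 replicate 1 and 0 to 72 in the other 17 libraries, and Ighg2c had 579 in F4/80-high kidney 1 replicate 1 and 0 to 2 elsewhere. Iglc1, a λ light chain gene, had 3511 counts in F4/80-low kidney 1 replicate 1 and 0 to 25 elsewhere, which brought the λ share of light chain counts there to 53.3% (52.1 to 54.5%).

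Set against all leukocytes, T receptor genes overlapped between region types. NK receptor genes overlapped between F4/80-high and F4/80-low regions, and were higher in F4/80-high than in non-cystic regions in 3 of 3 kidneys. Ptprc, which encodes the leukocyte surface protein CD45, had 11.5 to 21.7, 18.3 to 51.2 and 84.7 to 132 CPM in the libraries of the 3 region types, in the order used above, and rose by 2.78 ± 0.18 against non-cystic regions (adjusted p = 1.6e-05). Per 100 Ptprc counts, the 7 T receptor genes summed to 15.3 to 59.1 in the 3 kidneys of non-cystic, 29.7 to 55.2 of F4/80-low and 40.2 to 49.8 of F4/80-high regions. The 4 NK receptor genes summed to 7.85 to 11.5, 8.09 to 15.4 and 12.1 to 14.7, and the 6 B cell genes to 26.4 to 51.6, 20.0 to 26.8 and 19.7 to 25.2. By kidney the NK receptor sums were 8.8, 8.09 and 14.7 in kidney 1 and 11.5, 13.9 and 12.1 in kidney 2. In kidney 3 they were 7.85, 15.4 and 12.6. The plasma cell genes summed to 864 to 11708, 284 to 4549 and 791 to 4490. Per 1000 counts of the macrophage markers the T receptor genes summed to 33.1 to 80.3, 35.3 to 64.8 and 26.5 to 44.3. The NK receptor genes summed to 12.0 to 17.0, 10.7 to 18.0 and 6.94 to 16.2 on that scale. These ratios were not tested, and a ratio shows only how unequally its parts changed.

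**Figure D5:**
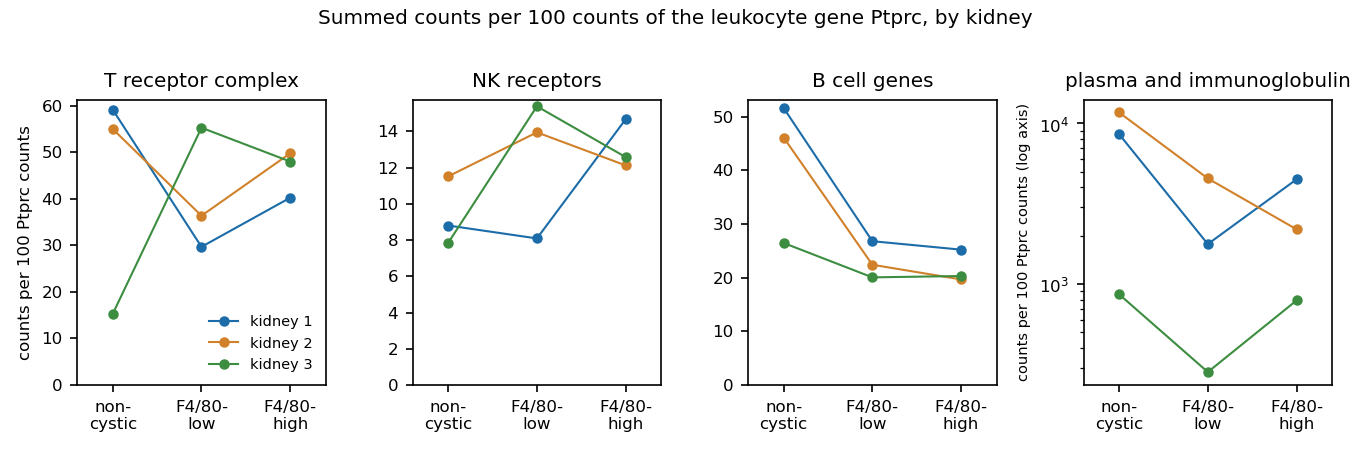
Summed counts of 4 groups of lymphocyte genes per 100 counts of Ptprc (vertical axes, the last on a log scale) by region type (horizontal axes), with a line for each kidney. T receptor genes run from 40.2 to 49.8 in F4/80-high regions within the 15.3 to 59.1 of non-cystic regions, and B cell genes are highest in non-cystic regions in each kidney.

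Further genes of the same cells were read from other lists, beside the 19.7% higher and 19.5% lower of all genes. Of 19 tested further T cell genes 13 rose and 1 fell in F4/80-high against non-cystic regions, and the 13 included Tnfrsf18 (GITR, 4.10 ± 0.51), Lcp2 (2.73 ± 0.36) and Havcr2 (2.87 ± 0.41), which macrophages express as well. Constant regions of the γδ T cell receptor were sparse outside F4/80-high regions: Tcrg-C1 had 0, 1 and 66 counts and Tcrg-C2 0, 6 and 52, at least 14.5-fold and 11.5-fold higher than in non-cystic regions with a floor of 3 counts over the group, and Trdc had 1, 4 and 47 (ratio 31.0, exact 95% counting interval 5.31 to 1252). F4/80-high kidney 1 replicate 1 alone held 34 of the 66, 20 of the 52 and 14 of the 47 counts. The folds allow for counting error only. Of 5 tested further NK genes 3 rose, among them Gzmk (granzyme K, 4.83 ± 1.07) and Fasl (3.74 ± 1.25), and of 16 further B and plasma cell genes 6 rose, among them Cd37 (1.69 ± 0.37) and Bank1 (2.23 ± 0.57). All 7 pan-leukocyte genes rose, and the recombination gene Rag1, the only tested of 4, was not called.

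Genes for the recruitment and upkeep of lymphocytes changed in both directions. Of 9 tested chemokine genes 6 rose and 1 fell in F4/80-high against non-cystic regions. Cxcl16 rose by 2.57 ± 0.22 (adjusted p = 5.64e-05), from 67.6 ± 13.4 to 397 ± 26.7 CPM (SD, n = 3), and its receptor gene Cxcr6 by 3.35 ± 0.64 (adjusted p = 0.00485), from 1.71 ± 1.15 to 17.7 ± 1.20 CPM. Cxcl12, which holds lymphocytes and stem cells in tissue, fell by 1.12 on the log2 scale (SE 0.24, adjusted p = 0.0057). Of 10 homing receptor genes 5 rose, among them Cd69 (3.15 ± 0.69), which holds lymphocytes in tissue, and the integrin gene Itgal (1.98 ± 0.42). Of 9 survival cytokine and receptor genes 7 rose and 2 fell. The interleukin 7 receptor gene Il7r rose by 5.47 ± 0.83 (adjusted p = 0.00135) and the B cell survival factor gene Tnfsf13b (BAFF) by 3.17 ± 0.32 (adjusted p = 0.00013). Il15, which sustains NK and memory killer T cells, fell by 1.75 (SE 0.18, adjusted p = 0.00017), from 32.0 ± 2.67 to 9.76 ± 3.03 CPM, and its receptor chain gene Il15ra fell by 0.85 (SE 0.24, adjusted p = 0.019). Of 10 costimulation and checkpoint ligand genes 6 rose, led by Cd86 (3.96 ± 0.26) and Cd40 (2.97 ± 0.28).

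The F4/80-low regions showed some of these changes while 0 of the 33 lymphocyte genes were called there. Called higher were 2 of 9 chemokine, 1 of 10 homing receptor and 1 of 9 survival genes, beside 1.51% of all tested genes. Of the ligand genes 2 of 10 were called higher, and of the pan-leukocyte genes 4 of 7. Against non-cystic regions Cxcl16 (1.33 ± 0.21, adjusted p = 0.0171), Cxcl10 (4.64 ± 0.63, adjusted p = 0.0184), Il2rg (1.55 ± 0.23, adjusted p = 0.0148), Cd86 (1.77 ± 0.26, adjusted p = 0.0125), Cd40 (1.71 ± 0.28, adjusted p = 0.0197) and Ptprc (1.12 ± 0.17, adjusted p = 0.0145) rose. The 5 lymphocyte genes with the smallest p there were Klrk1 and Nkg7, given above, Trbc1 (1.56 ± 0.49, adjusted p = 0.208), Lck (1.17 ± 0.40, adjusted p = 0.262) and Trac (1.23 ± 0.44, adjusted p = 0.28). Their fold changes lay within the range of the called genes just named, so a missing call does not show an unchanged level.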

How the data were processed

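The low-input RNA kit named in the labels' protocols keeps no strand information. The authors deposited unnormalized gene counts. Per the submitters' processing notes the build was mm10 (GRCm38) and FastQC 0.11.9, fastp 0.20.1 and HTSeq 0.11.0 were used, without their roles; which aligner, annotation release and strand setting were used is not given in the sources used here. Gene symbols, coordinates and exon lengths were taken from the reference annotation of GRCm38, in which 32158 of 32285 identifiers had a symbol.

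For each kidney the paired libraries of a region type were added, giving 9 sums. They entered edgeR 4.0.16 under R 4.3.3 (TMM, filterByExpr by region type, robust quasi-likelihood test), all 3 region types and the kidney as block in 1 model with 4 residual degrees of freedom, for 16034 genes that held 99.8% of the counts. The block rests on the labels: deviations of sums of the same kidney but different region types correlated at -0.15 to 0.28 (median 0.10, 9 pairs). The SE equals the size of the log2 fold change divided by the root of F. With the kidney as block, p-values measure how much the differences between region types varied over these 3 kidneys. That spread was estimated with the help of all tested genes. The spread between the paired libraries was not estimated on its own, because they were summed and each sum carries it. CPM are scaled by TMM, and CPM per kilobase divide by the union of exons. The script was tested on simulated data. Alternatives (35) used other scalings, filters and tests (DESeq2 1.42.0, limma 3.58.1), single libraries, other blocks, and left out each kidney and library. The labels give no sequencing batch.

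The members and lists were chosen with earlier results of these data known. Any member could be named; of each other list up to 4 genes with the smallest p in F4/80-high against non-cystic regions, and of those for leukocytes the genes a result turned on. The immunoglobulin class genes, Il15ra, Cxcl10, the γδ receptor genes and Rag1 were named after their values were seen. A few genes of these other lists are not reported here. Intervals cover counting error only.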

Additional observations from a re-analysis of the deposited data

Results flagged for a closer look

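In groups of 6 libraries, the gap between the highest or lowest library and its nearest neighbour was set against the whole range of the group for each of the 33 tested genes and 3 region types, 99 groups in all. In 11 of them the gap passed Dixon's 95% critical value, where chance flags about 1 in 20 groups. The test used log2(CPM + 0.5).

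Of the 11, 6 were the low plasma cell values of kidney 3. Igkc had 6.23 CPM in non-cystic kidney 3 replicate 1 (nearest library 337) and 4.33 CPM in F4/80-high kidney 3 replicate 2 (nearest 950). Jchain had 0.705 CPM and 0.127 CPM in the same libraries (nearest 106 and 169). Mzb1 had 0 CPM and 0.127 CPM there (nearest 3.18 and 4.87).

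Ighm had 191 CPM in F4/80-low kidney 2 replicate 1 (nearest 14.2) and 493 CPM in F4/80-high kidney 3 replicate 1 (nearest 55.1). Non-cystic kidney 3 replicate 1 also stood out among T cell genes, with 7.29 CPM of Cd5 (62 counts, nearest 1.00) and 0.823 CPM of Zap70 (7 counts, nearest 0.122). Cd4 had 0.517 CPM in F4/80-high kidney 1 replicate 1 (5 counts, nearest 1.75).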

How the results depend on the processing

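The results were recomputed under 14 other settings and with each kidney and library left out in turn (21). In F4/80-high against non-cystic regions, Cd3g, Trac, Trbc1, Lck, Lat, Cd2, Cd28, Klrd1, Klrk1, Nkg7 and Cd79b were called in every alternative in which they were tested. Of these, Trbc1 and Cd28 reached the count minimum only with the help of the F4/80-high sums, so their calls are a description. The number of members called higher there was 25, 15 with the libraries labelled 1 alone, and 14 to 25 when a kidney or library was left out (14 without kidney 1 and 16 without kidney 2). The number called lower was 0, and 1 (Foxp3) with the 18 libraries and a kidney block, 1 without any block, and 0 to 1 on leaving out a library. In F4/80-low against non-cystic regions the number called higher was 0 and became 2 without a filter, 2 with the DESeq2 Wald test, 1 with the 9 sums and no replicate block, 1 with 18 libraries and a kidney block, 2 with 18 libraries without any block, and 0 to 2 on leaving out a library. Klrk1 passed there in 6 and Nkg7 in 4 of the 35 alternatives. In F4/80-high against F4/80-low regions it was 15, 23 with total counts, 9 and 5 with the libraries labelled 1 or 2 alone, and 3 to 17 on leaving out a kidney or library (3 without kidney 1, 9 without kidney 2, and 9 without non-cystic kidney 3 replicate 2). Fewer samples enter where libraries are left out, other settings kept all 18 libraries, and the cause of these shifts was not tested.

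The sign turned in these cases. Foxp3 had 0.14 against non-cystic and 0.0296 against F4/80-low regions with total counts. With the libraries labelled 2 alone, F4/80-high against non-cystic, Gzma had -0.75, Igkc -1.28, Jchain -1.73 and Mzb1 -0.23. On leaving out a kidney or library, the same comparison gave -0.073 to 0.93 for Gzma and -0.23 to 2.65 for Jchain, and F4/80-high against F4/80-low gave -0.16 to 2.89 for Ncr1 (lowest without kidney 1) and -0.22 to 3.47 for Ighm (lowest without kidney 3).

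Calls that rested on few libraries were Mzb1 (lost in 15 of 21 leave-outs against non-cystic regions, adjusted p = 0.0521 to 0.668), Klrb1c (13 of 20), Ms4a1 (11 of 21, adjusted p = 0.0609 to 0.472) and Igkc (8 of 21, adjusted p = 0.0593 to 0.918), and against F4/80-low regions Cd4 (12 of 21), Klrd1 (10), Cd8b1 (7), Jchain (7), Mzb1 (7) and Igkc (6). Against non-cystic regions Cd8a lost its call without F4/80-high kidney 3 replicate 1 (1.35, adjusted p = 0.166) or non-cystic kidney 1 replicate 2 (1.43, adjusted p = 0.0573), Cd4 without F4/80-high kidney 1 replicate 2 (2.13, adjusted p = 0.0508) and Zap70 without non-cystic kidney 3 replicate 2 (2.98, adjusted p = 0.0551). Leaving out a whole kidney also ended the calls of Cd3e, Cd3d, Trbc2, Cd8b1, Icos, Pdcd1 and Cd22 (adjusted p = 0.0569 to 0.18). With total counts the median of all genes moved to 0.65 (F4/80-high against non-cystic), 0.52 (against F4/80-low) and 0.13 (F4/80-low against non-cystic), and the share of higher genes among all called was 81.9% in place of 50.2% and 79.0% in place of 42.3%; with upper quartile factors it was 57.4 and 53.1%. Plasma cell calls were also lost under the 14 other settings. Against non-cystic regions Mzb1 lost its call in 11 of 14 and Igkc in 7 of 14. Against F4/80-low regions Igkc lost it in 8, Jchain in 9 and Mzb1 in 8 of 14. Every fit on the 18 single libraries lost all of these calls. With kidney and replicate number as a replicate block of the 18 libraries, Igkc had 1.03 (adjusted p = 0.556) and Mzb1 0.72 (adjusted p = 0.402) against non-cystic regions. The 8 genes left untested for low counts gave 0 calls without a filter, with a smallest adjusted p of 0.0511 (Cd6, F4/80-high against F4/80-low regions).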
